A study of Mus musculus with 20 samples.

Results

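The 9 genes described here encode enzymes that turn squalene epoxide into cholesterol: Lss, Cyp51, Tm7sf2, Msmo1, Nsdhl, Hsd17b7, Ebp, Sc5d and Dhcr7. They were chosen by name, as probe sets annotated to exactly 1 of these symbols. All 9 had such a probe set with values in every array, and all 9 passed the filter on low values, among 15651 genes tested and 28856 probe sets in the deposited table. Transcripts were measured in testes of adult male 129/C57BL6 mice that were RiboTag-positive and Cyp17icre-positive, a genotype that every sample shared. The RiboTag allele puts an HA tag on a ribosomal protein once Cre has acted. Cyp17 is active in Leydig cells, the androgen-producing cells between the tubules, so an antibody against HA pulls down polysomes of these cells (the IP fraction). Which other testis cells carried the tag was not given in the labels. The protocol describes 1 homogenized testis per time point, part of it for total RNA and the rest for the IP, but the labels do not say which IP and total testis arrays share a testis. Every mouse had received WIN 18,446, an inhibitor of retinoic acid synthesis, at 100 μg per g for 7 days from day 2 after birth. An injection of 200 μg all-trans retinoic acid on day 9 then set the germ cells in step, and testes were taken 42 to 50 days later. Both fractions were sampled in 5 stage windows of the seminiferous cycle, named XII-II/III, X-XII, VIII-X, VI-VIII and II/III-VI, with 2 arrays per window and fraction, or 20 arrays. The source field of replicate 1 of total testis XII-II/III reads X-II/III, against XII-II/III in its title and stage field, which were used.

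After squalene is made and oxidized, Lss closes it into the ring system of lanosterol. Cyp51 then removes a methyl group and Tm7sf2 reduces the double bond that this leaves. Msmo1, Nsdhl and Hsd17b7 act in turn to strip the remaining methyl groups from the first ring, Ebp moves a double bond, Sc5d adds one and Dhcr7 makes the last reduction to cholesterol. In Leydig cells cholesterol is the substrate of androgen synthesis. Germ cells also express part of the pathway, and the sterols that Cyp51 and Tm7sf2 release are known as meiosis-activating sterols. Genes of the pathway are classic targets of SREBP2, the sterol-sensing transcription factor made from Srebf2, which acts beside NF-Y, the factor that binds the letters CCAAT.

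The promoters of the 9 genes, which were chosen by name, are shown for the letters they share. Promoters of other genes higher in IP were not compared separately, so no link between these letters and the IP level was tested. RefSeq windows on GRCm38.p6, 250 bases before to 50 bases after an annotated start, were found for all 9 genes, 1 each except Dhcr7, which had 3. The letters CCAAT, on either strand, were present in a window of 9 of 9 genes, against 41.7% of the 12446 tested genes with a promoter window and 37.4% of all 32851 windows. Nsdhl had the most matches, 4, with a log2 difference between fractions of 2.76. Msmo1 and Hsd17b7 had 3 each (3.58 and 3.21), and Ebp and Dhcr7 2 each (2.11 and 2.94). Lss, Cyp51, Tm7sf2 and Sc5d had 1 each (2.17, 2.06, 2.86 and 2.84). The following windows belong to Lss, which closes the ring, to Cyp51, and to Msmo1 and Hsd17b7, which had the largest differences between fractions. The windows are written 5′ to 3′ on the gene's strand, and capitals mark CCAAT, read ATTGG where it lies on the opposite strand.
Lss, chr10:76531355-76531654, plus strand: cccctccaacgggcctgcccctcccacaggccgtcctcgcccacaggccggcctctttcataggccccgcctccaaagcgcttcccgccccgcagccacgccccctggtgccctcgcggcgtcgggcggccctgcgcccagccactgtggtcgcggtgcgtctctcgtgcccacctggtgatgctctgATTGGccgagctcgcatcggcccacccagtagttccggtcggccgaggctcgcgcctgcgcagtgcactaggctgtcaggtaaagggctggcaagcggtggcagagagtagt
Cyp51, chr5:4104648-4104947, minus strand: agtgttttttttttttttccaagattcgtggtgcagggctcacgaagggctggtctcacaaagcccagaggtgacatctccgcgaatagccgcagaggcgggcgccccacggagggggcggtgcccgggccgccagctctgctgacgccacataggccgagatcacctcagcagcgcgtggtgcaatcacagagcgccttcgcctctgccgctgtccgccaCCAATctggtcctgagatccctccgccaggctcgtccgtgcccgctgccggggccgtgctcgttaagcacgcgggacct
Msmo1, chr8:64733529-64733828, minus strand: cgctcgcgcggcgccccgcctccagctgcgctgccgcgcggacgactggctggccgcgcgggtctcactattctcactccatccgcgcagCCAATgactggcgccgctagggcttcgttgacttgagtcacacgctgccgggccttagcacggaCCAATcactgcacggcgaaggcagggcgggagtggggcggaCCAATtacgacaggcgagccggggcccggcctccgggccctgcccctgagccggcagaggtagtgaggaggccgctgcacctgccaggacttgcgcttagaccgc
Hsd17b7, chr1:169969156-169969455, minus strand: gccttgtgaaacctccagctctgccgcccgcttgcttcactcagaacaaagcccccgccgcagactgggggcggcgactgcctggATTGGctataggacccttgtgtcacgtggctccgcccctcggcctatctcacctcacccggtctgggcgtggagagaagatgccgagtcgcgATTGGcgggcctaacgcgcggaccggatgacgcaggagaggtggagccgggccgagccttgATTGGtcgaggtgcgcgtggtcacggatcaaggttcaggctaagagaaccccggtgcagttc
For the other 5 genes the 30 bases around the match nearest before the start are enough to show it, with the same capitals.
Tm7sf2, chr19:6067880-6067909, minus strand: ctcccagcgctgATTGGctactgtgctggg
Nsdhl, chrX:72918489-72918518, plus strand: aagactagcctcATTGGgcaaaatcatgct
Ebp, chrX:8193550-8193579, minus strand: atccctgtactgATTGGttcgtcagattcg
Sc5d, chr9:42264307-42264336, minus strand: cgccggctgctgATTGGccggctgcctgca
Dhcr7, chr7:143830153-143830182, plus strand: aatccacttccgATTGGtcgtctgtgacct
The match nearest before the start began between 12 bases (Hsd17b7) and 62 bases (Lss) upstream. The GC box letters GGGCGG were also in a window of 9 of 9 genes, against 62.0% of the tested genes. The letters TCACNCCAC, a common form of the sterol element that SREBP binds, were in 0 of 9 genes, against 1.45% of the tested genes. A looser form chosen after the sequences were seen, TCACNNCA, was in 6 of 9, against 13.7%. The cAMP element TGACGTCA was in 0 of 9 genes (3.18% of the tested genes), CAAGGTCA, a site form of the Leydig cell factor Nr5a1, in 1 (Dhcr7, against 1.40%), and the E-box CACGTG in 3 (Hsd17b7, Sc5d and Dhcr7, against 10.8%). Any match to TCACNCCAC is also a match to TCACNNCA, and every motif was searched on both strands. These are matches of letters within 300 bases and were not tested as binding sites.

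The values showed 4 sets of 5 arrays, each with the 5 windows of a fraction and replicate number, that look normalized separately. Between 4.68% and 15.6% of values were exactly equal between arrays within a set, against 6 equal values among 3708775 pairs across sets. The replicate number and the set are therefore the same thing, and fraction is compared between sets. The mean log2 intensity of 8 tested Leydig cell markers was between 13.22 and 13.57 in IP arrays and between 10.64 and 11.12 in total testis, and all 8 were higher in IP. The hormone Insl3 shared its probe set with another gene and the receptor Lhcgr had no tested probe set. Of the other lists, 10 spermatid markers had means of 11.61 to 12.56 in IP against 12.42 to 13.12 in total testis, with 0 higher in IP and 8 lower. The 10 spermatocyte markers had 0 higher and 10 lower, 9 Sertoli cell markers 6 and 0, 6 peritubular myoid markers 1 and 5, 8 macrophage markers 2 and 6, and 5 endothelial markers 1 and 1. Over all genes tested 50.1% were called higher in IP and 26.6% lower. Germ cell RNA was thus still present in IP. Sertoli cell markers were not depleted there, with means of 10.72 to 11.91 in IP against 10.62 to 10.91 in total testis. The IP fraction is therefore not read as Leydig cell RNA alone, and the source of the Sertoli cell signal was not tested.

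The first comparison asked whether the transcripts of these enzymes were higher in the IP fraction than in total testis. All 9 genes were higher in IP than in total testis by limma, by 2.06 to 3.58 on the log2 scale, or 4.16 to 11.9 times in intensity. Among all genes tested 50.1% were called higher in IP. The median difference of the 9 genes was 2.84, against 0.20 over all genes, and 5.33% of all genes were higher by at least 2, a mark that 9 of 9 members passed. For each of the 9 the lowest of 10 IP arrays lay above the highest of 10 total testis arrays, which held for 32.8% of all genes. A higher share of Leydig cell RNA in the IP and more of a transcript per cell cannot be told apart in such bulk samples.

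Lss, the cyclase, had log2 intensities of 11.41, 12.00 and 12.46 (lowest, median and highest) in IP and of 9.74, 9.81 and 9.88 in total testis. The total testis arrays were almost level and the fractions lay far apart, with a difference of 2.17 ± 0.080 (SE, n = 10 arrays per fraction, limma adjusted p = 1.74e-13). Cyp51, the lanosterol demethylase, ran from 11.71 over 12.37 to 12.52 in IP and from 9.43 over 10.18 to 11.03 in total testis. Its total testis arrays were the most scattered of the 9 genes and its highest one came within 0.68 of the lowest IP array. Its difference of 2.06 ± 0.14 was the smallest (limma adjusted p = 4.85e-10). Tm7sf2, the reductase that acts next, had 10.81, 11.41 and 11.92 in IP and 8.38, 8.52 and 8.78 in total testis, the latter near the filter on low values at 8.20. It was higher in IP by 2.86 ± 0.093.

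Of the enzymes that remove the methyl groups from the first ring, Msmo1 and Hsd17b7 had the largest differences of the 9 genes. Msmo1, the oxidase of this step, had 12.99, 13.25 and 13.45 in IP and 9.38, 9.65 and 9.90 in total testis. Its lowest IP array lay 3.10 above its highest total testis array. Its difference of 3.58 ± 0.066 (limma adjusted p = 1.37e-16) ranked 36 among 15651 genes. Nsdhl, the decarboxylating dehydrogenase, had 12.51, 12.96 and 13.24 in IP and 9.87, 10.24 and 10.56 in total testis. It was higher in IP by 2.76 ± 0.092. Hsd17b7, the ketone reductase that closes this cycle of reactions, had 11.34, 12.09 and 12.59 in IP and 8.75, 8.89 and 9.06 in total testis. Its difference of 3.21 ± 0.095 was the second largest of the 9 and ranked 111.

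Of the enzymes that finish the sterol, Ebp had 11.48, 11.80 and 12.14 in IP and 9.46, 9.70 and 9.89 in total testis, a difference of 2.11 ± 0.071. Sc5d, the desaturase, had 12.71, 13.18 and 13.46 in IP and 10.17, 10.34 and 10.47 in total testis, a difference of 2.84 ± 0.073. Dhcr7, the last reductase, had 12.09, 12.84 and 12.96 in IP and 9.34, 9.77 and 10.19 in total testis, a difference of 2.94 ± 0.094. The fractions did not overlap in any of these genes. By size the differences fell into a group of 3 from 2.06 to 2.17 (Cyp51, Ebp and Lss), apart by less than the SE of Cyp51, and a group of 6 from 2.76 to 3.58.

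**Figure D1:**
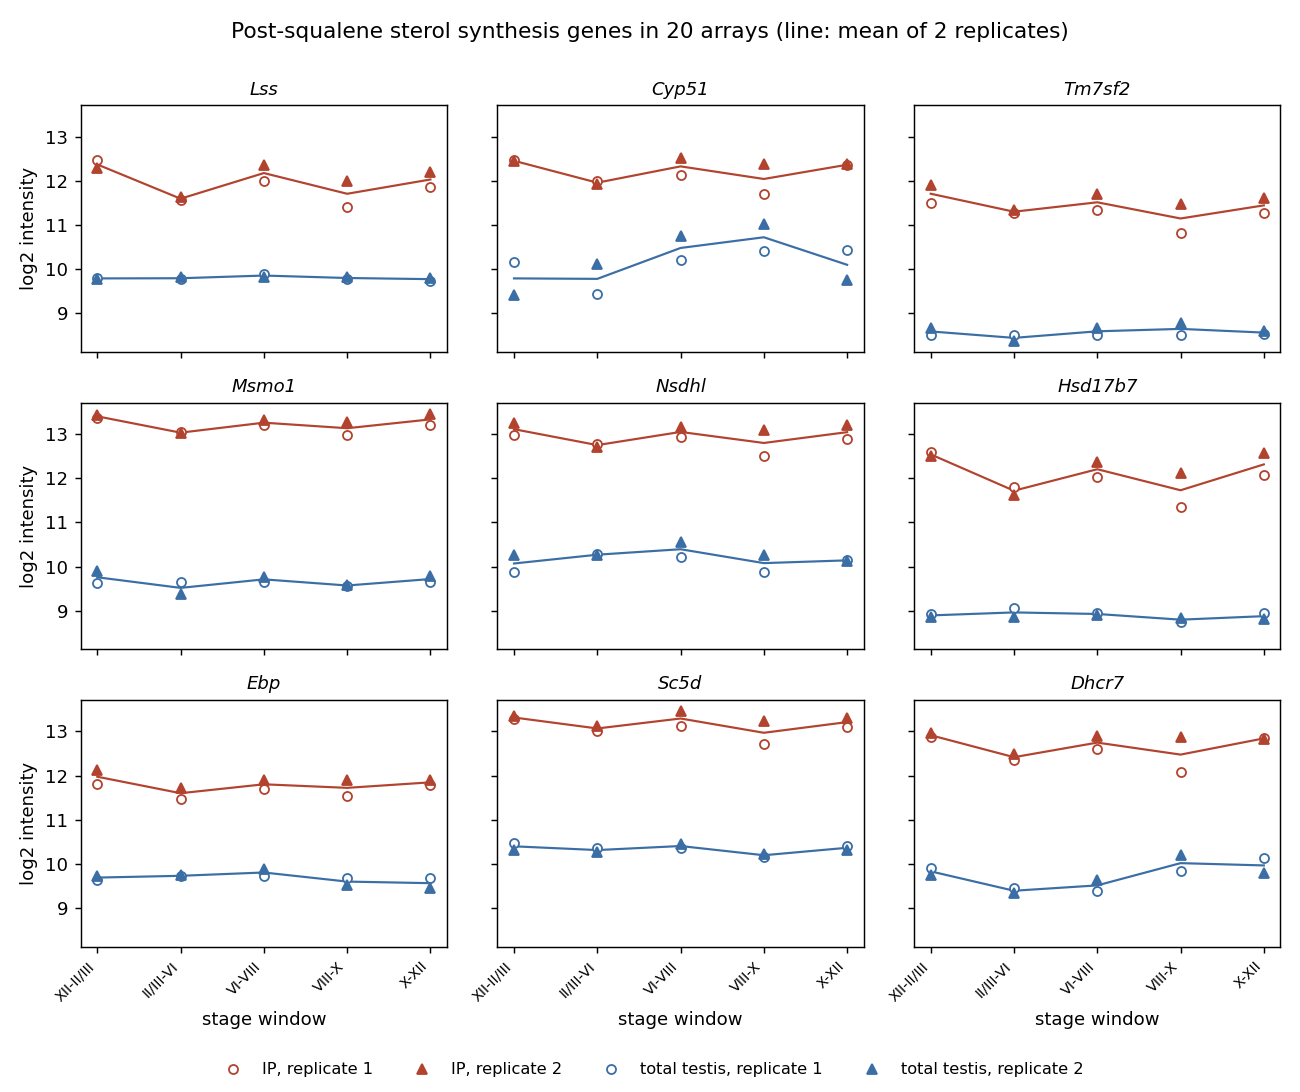
Log2 intensity (vertical axis) of the 9 genes in all 20 arrays by stage window (horizontal axis), in IP (red) and total testis (blue); open circles are replicate 1, filled triangles replicate 2, and lines join the means of 2 arrays. The IP arrays lie above the total testis arrays in every panel, Cyp51 scatters most in total testis, and in IP replicate 1 of VIII-X lies low for most genes; levels of different genes cannot be compared with each other.

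The difference was also taken within pairs of an IP and a total testis array of one window and replicate number. As the fractions did not overlap in any of the 9 genes, it had to be above 0 in every pair. It was smallest for Cyp51, at 1.29 to 3.02, and most even for Msmo1, at 3.38 to 3.76. In replicate 2 the mean difference was larger than in replicate 1 for all 9 genes, for Hsd17b7 3.38 against 3.04. The median of all genes was also higher in replicate 2 than in replicate 1 of IP, by 0.21 to 0.30 in the 5 windows. The SEs above take arrays of a set as independent and are likely too small. With the set as a random block (correlation 0.636) all 9 genes were still called, and their highest adjusted p was 0.000629. Scaling moved the median of all genes from 0.20 to -0.07 with quantile normalization and -0.24 with median centring. The median of the 9 genes lay 2.64 above that of all genes as deposited, 2.69 above after quantile normalization and 2.64 above after median centring.

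The lists of other genes of cholesterol handling had smaller median differences than the 9 enzymes. Of 11 genes from mevalonate to squalene 9 were tested, and 8 of these were higher in IP and 0 lower, with a median of 0.95. Hmgcs1, which makes the precursor of mevalonate, was higher by 2.39 ± 0.067. Next in size were Fdps (1.38 ± 0.091), Ggps1 (1.12 ± 0.054), Mvd (1.04 ± 0.074), Sqle (0.95 ± 0.072) and Pmvk (0.95 ± 0.076). The gene that was not called, named after its values were seen, was Fdft1, the squalene synthase just upstream, with a difference of -0.08 ± 0.063 (limma adjusted p = 0.263), from mean log2 intensities of 13.34 in IP and 13.42 in total testis. It lay below the median of all genes (0.20 as deposited), which moved to -0.24 with median centring. That Fdft1 was not called, and the count of 0 lower, may thus rest on the scaling. Sqle, kept in this list though it acts on squalene itself, makes the substrate of Lss, and the 2 neighbours were higher by 0.95 and 2.17. The difference between these lists was not tested.

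Of 9 other genes of the post-squalene steps and their helpers 6 were tested, with 5 higher, 1 lower and a median of 1.33. Pgrmc1, a heme-binding partner of cytochromes P450, was higher by 2.09 ± 0.062, and the cytochromes b5 Cyb5a (1.73 ± 0.063) and Cyb5b (1.24 ± 0.083) and their reductase Cyb5r3 (1.42 ± 0.066) were higher too. Erg28, a scaffold for the demethylation enzymes, was higher by 1.17 ± 0.080. Lbr, a protein of the nuclear envelope that carries the same reductase activity as Tm7sf2, was lower by limma, with a difference of -0.45 ± 0.098 (adjusted p = 0.000524), while Tm7sf2 was higher by 2.86.

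Of 18 genes of sterol sensing and uptake 13 were tested, with 11 higher, 1 lower and a median of 1.68. The efflux transporter Abca1 (3.07 ± 0.081), Srebf2 (2.27 ± 0.066), its escort Scap (2.18 ± 0.069), Npc1, which exports cholesterol from lysosomes (2.15 ± 0.065), Srebf1 (1.85 ± 0.090) and the lipoprotein receptor Scarb1 (1.80 ± 0.084) led this list. Outside the largest and named after their values were seen, the sterol receptor Nr1h3 was lower at -0.20 ± 0.070 (limma adjusted p = 0.0159), Insig2 was not called at -0.13 ± 0.063 (limma adjusted p = 0.0622), and the efflux transporter Abcg1, counted as higher at 0.21 ± 0.088 (limma adjusted p = 0.0356), lay at the median of all genes, so its direction rests on the scaling. That Insig2 was not called may rest on the scaling as well.

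**Figure D2:**
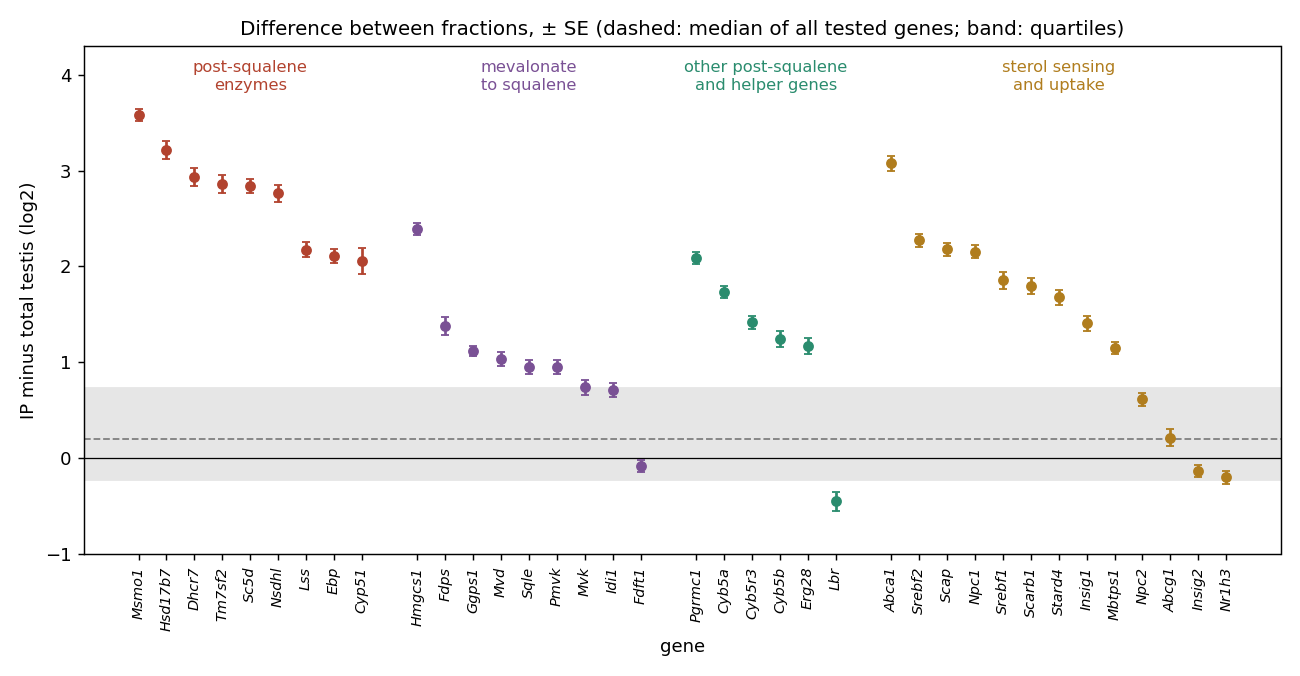
Difference between IP and total testis on the log2 scale (vertical axis) for each tested gene of the 4 lists (horizontal axis), with error bars of 1 SE from the limma model; the dashed line is the median of all tested genes (0.20) and the grey band spans their quartiles. All 9 post-squalene enzymes lie above 2, while 1 of 9 genes from mevalonate to squalene does.

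The second comparison asked whether these transcripts differed between windows within IP. In the mean of both replicates all 9 genes were highest in XII-II/III, and 7 were lowest in II/III-VI and 2 (Tm7sf2 and Sc5d) in VIII-X. The amplitude, the highest minus the lowest window mean, ran from 0.35 (Sc5d) to 0.82 (Hsd17b7), with a median of 0.50 against 0.24 over all genes. The F test over the 5 windows called Lss (adjusted p = 0.0324) and Hsd17b7 (adjusted p = 0.0457) by limma, 2 of 9 genes against 8.87% of all genes. A peak in XII-II/III is not particular to these genes: it was found in 24.1% of all genes and in 67.9% of the 834 genes called higher in IP by at least 2.

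Lss had log2 intensities of 12.46 and 12.28 in XII-II/III (replicates 1 and 2), 11.57 and 11.63 in II/III-VI, 11.99 and 12.37 in VI-VIII, 11.41 and 12.01 in VIII-X and 11.86 and 12.20 in X-XII. Both arrays of II/III-VI lay below both of XII-II/III, while VIII-X was low in replicate 1 and in the middle in replicate 2. XII-II/III exceeded the mean of the other 4 windows by 0.49 ± 0.14. Hsd17b7 had 12.59 and 12.50 in XII-II/III, 11.81 and 11.63 in II/III-VI, 12.04 and 12.37 in VI-VIII, 11.34 and 12.12 in VIII-X and 12.06 and 12.57 in X-XII. Its arrays of II/III-VI also lay below both of XII-II/III, but X-XII held its highest array of replicate 2, where Lss was highest in VI-VIII. The XII-II/III mean of Hsd17b7 was 0.55 ± 0.17 above the others. The remaining 7 genes exceeded the other windows in XII-II/III by 0.18 ± 0.13 (Sc5d) to 0.36 ± 0.16 (Tm7sf2), with F test adjusted p-values of 0.509 to 1 by limma.

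The replicates agreed on part of this order. Within the first set of IP arrays 9 of 9 genes were highest in XII-II/III and 8 of 9 lowest in VIII-X, Ebp being lowest in II/III-VI. In the second set 4 were highest in XII-II/III, 3 in VI-VIII and 2 in X-XII, and 9 of 9 were lowest in II/III-VI. The combination of VIII-X lowest in the first set and II/III-VI lowest in the second was found in 8 of 9 genes and in 2.08% of all genes. It was not particular to these enzymes. Among genes of the related lists, named here after their values were seen, Hmgcs1, Mvk, Mvd, Idi1, Sqle, Erg28, Cyb5b, Scap, Stard4 and Insig1 had it too. All 9 genes were lower in II/III-VI than in XII-II/III in both sets. This follows from the highest and lowest windows just given and is no separate result. These windows were picked from the same data, so the size of the fall is no independent support. The median fall was 0.34 in the first set and 0.52 in the second, against 0.07 and 0.01 over all genes, and 41.7% of all genes were lower in both sets. The fall was not compared with that of other genes higher in IP. The VIII-X arrays differed most between replicates: replicate 2 was above replicate 1 by 0.59 in the median of the 9 genes, and by 0.78 for Dhcr7 and Hsd17b7, against 0.24 in the median of all genes.

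With the replicate block of fraction and number, which compares windows within a set only, Lss (adjusted p = 0.0105), Hsd17b7 (0.0255) and Tm7sf2 (0.0444) were called by limma, against 19.2% of all genes. The calls were fragile. With array weights or with the 10 IP arrays alone 0 of 9 genes were called (Lss at adjusted p = 0.169 and 0.341, Hsd17b7 at 0.225 and 0.332). Among the 20 limma fits with an array removed, the Lss call was lost in 14 and the Hsd17b7 call in 15. These were the fits without either array of XII-II/III or II/III-VI of IP (Lss adjusted p = 0.0610 to 0.123, Hsd17b7 0.0735 to 0.136) and without any of the 10 total testis arrays (Lss 0.0501 to 0.0526, Hsd17b7 0.0617 to 0.0698), and for Hsd17b7 also without replicate 2 of VI-VIII in IP (0.0509). Without replicate 2 of VIII-X in IP, Dhcr7 was called as well (0.0427). In a contrast added after the data were seen, each window was set against the mean of the other 4 in IP. Of the 9 genes 0 passed in XII-II/III (limma adjusted p from 0.116 for Lss to 1), against only 0.0895% of all genes called above. In II/III-VI the lowest limma adjusted p was 0.0594 (Lss), against 3.00% of all genes called below. With the block Lss alone passed in XII-II/III (limma adjusted p = 0.0354, against 1.00% of all genes called above). It alone also passed in II/III-VI (0.0168, against 7.91% called below).

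Leydig cell markers moved less than these genes in the same arrays. Their mean ran from 13.22 to 13.40 within the first IP set and from 13.46 to 13.57 within the second. The F test called 0 of 8, against 8.87% of all genes, and with the block 0 of 8, against 19.2%. At these shares a count of 0 of 8 does not set the markers apart. The mean of the 9 enzymes ranged from 11.90 to 12.59 in the first set and from 12.18 to 12.70 in the second. The mean of the spermatid markers in the first set was 11.66 in XII-II/III, 12.21 in II/III-VI, 11.73 in VI-VIII, 11.99 in VIII-X and 11.69 in X-XII, higher in the windows where the enzymes were lower. In the second set these means were 11.71, 11.88, 12.56, 12.31 and 11.61, and VI-VIII, the highest, was a window with high enzyme levels. In IP 7 of 10 spermatid and 4 of 10 spermatocyte markers were called between windows, against 8.87% of all genes. The part of germ cell RNA in the enzymes' window pattern was not tested.

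**Figure D3:**
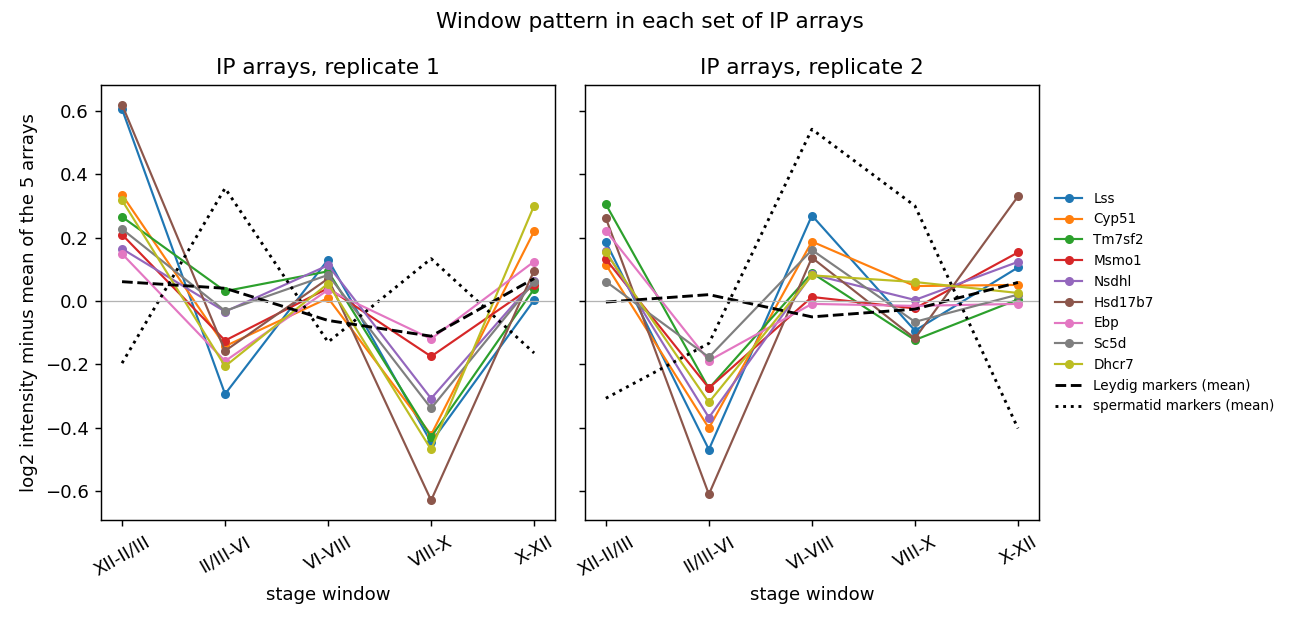
Log2 intensity of each of the 9 genes minus its mean over the 5 arrays of a set (vertical axis) by stage window (horizontal axis), for replicate 1 (left) and replicate 2 (right) of IP; dashed and dotted black lines give the same for the mean of 8 Leydig cell markers and of 10 spermatid markers. The lowest window is VIII-X for 8 of 9 genes in replicate 1 (II/III-VI for Ebp) and II/III-VI for 9 of 9 in replicate 2, the highest window differs between genes in replicate 2, and the line of Leydig cell markers is flatter.

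Among the related lists, 7 of 9 genes from mevalonate to squalene peaked in XII-II/III in IP. This peak was found in 24.1% of all genes and 36.5% of those called higher in IP. Mvd, the decarboxylase of the branch, was called by limma (0.58 ± 0.13, adjusted p = 0.0129). With the block Mvk was called too (adjusted p = 0.0401). Of the 13 genes of sterol sensing and uptake, Insig1, which holds SREBP back when sterol is plentiful and is itself an SREBP target, was called with a peak in XII-II/III (0.48 ± 0.14, adjusted p = 0.0402), and Srebf1 and Stard4 joined it with the block (0.0232 and 0.0342). Of the 6 helper genes 0 were called by limma, also with the block. Over all genes 8.87% were called, and 19.2% with the block, so these counts of calls do not set the lists apart. Insig1 had 12.71 and 12.46 in XII-II/III, 12.04 and 11.68 in II/III-VI, 12.21 and 12.45 in VI-VIII, 11.62 and 12.14 in VIII-X and 12.33 and 12.36 in X-XII. It was lowest in VIII-X in replicate 1 and in II/III-VI in replicate 2, as most of the 9 enzymes were.

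The third comparison asked the same of total testis. None of the 9 genes was called between windows by limma's F test (0 of 9, against 18.4% of all genes; with the block 0 of 9, against 36.7%). Without adjustment 2 of 9 passed the same threshold of 0.05, namely Cyp51 (limma adjusted p = 0.115) and Dhcr7 (limma adjusted p = 0.127). The share of all genes that passed without adjustment was not computed, but it cannot be below the 18.4% called with it. These 2 genes are therefore described without being set apart from all genes. Cyp51 had 10.16 and 9.43 in XII-II/III, 9.45 and 10.12 in II/III-VI, 10.21 and 10.76 in VI-VIII, 10.42 and 11.03 in VIII-X and 10.43 and 9.77 in X-XII. Its replicates lay 0.55 to 0.73 apart in every window, replicate 1 being the higher in XII-II/III and X-XII and replicate 2 elsewhere. Its VIII-X mean was 0.68 ± 0.24 above the others. The spermatid markers in the same arrays had means of 12.67 and 12.53, 13.08 and 12.91, 12.76 and 13.06, 12.94 and 13.12, and 12.71 and 12.42 in the same order.

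Dhcr7 had 9.92 and 9.75 in XII-II/III, 9.45 and 9.34 in II/III-VI, 9.39 and 9.64 in VI-VIII, 9.84 and 10.19 in VIII-X and 10.13 and 9.80 in X-XII. Both arrays of II/III-VI lay below both of VIII-X, and VIII-X was 0.34 ± 0.17 above the other windows. It was called under 4 alternatives, namely quantile normalization (limma adjusted p = 0.0463), median centring (0.0377), array weights (0.00817) and total testis arrays alone (0.0428), and Cyp51 under array weights only (0.0464). Leaving out either VIII-X array of IP also brought the Dhcr7 call (0.0280). The other 7 genes had amplitudes in total testis of 0.08 (Lss) to 0.32 (Nsdhl), and adjusted p-values of 0.925 to 1 by limma. The level of Tm7sf2 in the first total testis set, 8.51 to 8.52, was almost constant, near the low end of the tested range.

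Of the 9 tested genes in the list from mevalonate to squalene, 2 were called in total testis, against 18.4% of all genes. Fdps, the farnesyl diphosphate synthase, peaked in VIII-X by 0.76 (limma adjusted p = 0.00155), with 11.96 and 12.24 there against 10.74 and 10.90 in II/III-VI. Sqle peaked in II/III-VI by 0.66 (limma adjusted p = 0.00189), with 11.89 and 11.80 there against 10.90 and 10.95 in VIII-X. Fdps was lowest where Sqle was highest, and Sqle lowest where Fdps was highest. Of the 6 helper genes Cyb5a was called, with a peak in XII-II/III (0.41, limma adjusted p = 0.000143). Of the sensing and uptake genes Insig1 (0.57, X-XII, limma adjusted p = 0.000730), Insig2 (0.41, II/III-VI, 0.0120) and Scarb1 (0.59, VIII-X, 0.00190) were called, the window and its excess over the other 4 being in parentheses. With the block 2 of 9, 3 of 6 and 5 of 13 genes of these lists were called, against 36.7% of all genes.

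**Figure D4:**
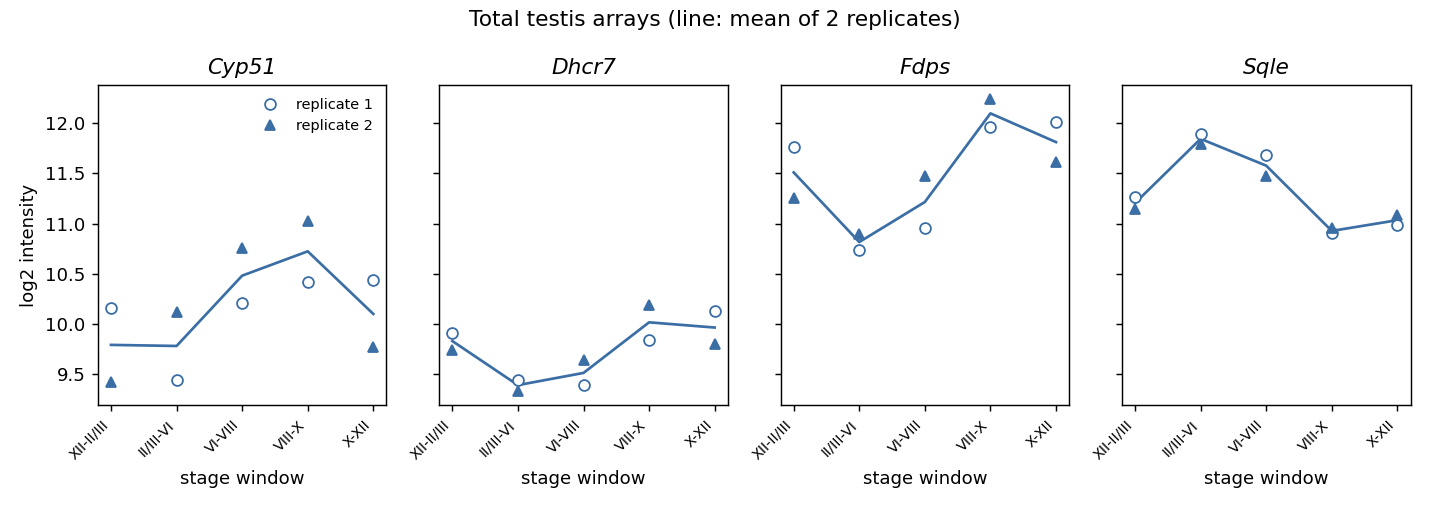
Log2 intensity in total testis (vertical axis) by stage window (horizontal axis) of Cyp51, Dhcr7, Fdps and Sqle; open circles are replicate 1, filled triangles replicate 2, and lines join the means of 2 arrays. The replicates of Cyp51 lie apart in every window, while Fdps and Sqle pass the F test with peaks in VIII-X and II/III-VI; levels of different genes cannot be compared.

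The interaction of fraction and window, which tests whether the window pattern differed between IP and total testis, was called for 0 of 9 genes by limma (adjusted p = 1 each), against 0.0511% of all genes. Without adjustment 1 of 9 passed the same threshold of 0.05, namely Lss, and the share of all genes that did so was not computed. With the block 0 of 9 were called, with adjusted p-values of 0.174 (Lss) to 0.971 (Msmo1), against 2.31% of all genes. The XII-II/III peak of Lss and Hsd17b7 in IP is therefore not shown to differ from total testis.

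The genes whose 10 group means followed the mean of the 9 enzymes most closely were Ptpn3, Capg, Dpyd, Slc51b and Gask1a, with Pearson's r of 0.999 to 1.000. With fraction as the main step in these 10 values, r describes chiefly a shared level difference. Hmgcs1 ranked 123 and Cyb5b 118 of 15642 genes by this measure, and Npc1 228. Over the 5 IP windows alone, a measure added after the data were seen, the closest were Ptpn3, Insig1, Tgm2, Abca7 and Ccnq, with r of 0.997 to 0.999 over 5 values. Scarb1 ranked 27, Mvk 36 and Srebf2 147 of 15640 genes there.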

How the data were processed

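Transcripts of IP and total testis were measured on 20 arrays, 2 for each of 10 groups. Each deposited value is a probe set's intensity on a linear scale. The submitters' processing notes name RMA, with the software and version not given in the sources used here. Symbols came from the platform's annotation, and probe sets with several symbols were left out. The log2 of each intensity was analysed. Genes were tested if listed in all arrays with a group mean at or above the 25th percentile of all log2 values (8.20). Where a gene had several probe sets, that with the highest mean stood for it, and each of the 9 genes had 1.

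Tests used limma 3.58.1 in R 4.3.3 with a mean for each group (10 residual degrees of freedom), two-sided and adjusted by Benjamini-Hochberg over 15651 genes, with a threshold of 0.05. The code was tested on simulated data. The labels do not say which replicates came from separate animals, so p-values measure the spread between these arrays, and their number limits the precision. Deviations of the IP and total testis array of one window and number, with the set mean removed, correlated at 0.30 to 0.52 over genes, so these arrays were treated as paired in one alternative. The named genes were the 9 enzymes and genes of 3 pathway lists past the threshold, at most 6 per list and comparison by size; exceptions are stated where they occur. The 5 genes most correlated with the mean of the 9 were named too. The genes, lists and tests were chosen with earlier results of these data known. The alternatives were other scalings, filters, offsets, probe set means, blocks, array weights and single arrays left out.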

Additional observations from a re-analysis of the deposited data

How the results depend on the processing

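All 9 genes stayed higher in IP under every alternative run for that comparison, including the replicate block that pairs the IP and total testis array of one window and number, with adjusted p-values of at most 0.000629. The 20 fits without single arrays gave 9 of 9 genes too, with 7443 to 8278 of all genes higher and 3976 to 4380 lower, against 7839 and 4166. The split of all genes moved with scaling, to 5891 higher and 7182 lower after quantile normalization (45.1% of calls higher, against 65.3%) and to 4798 and 8982 after median centring (34.8%).

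The window counts moved more, and the cause was not tested. In IP, 2 of 9 genes were called, against 1 without a filter (Hsd17b7 lost at adjusted p = 0.0533), 0 for array weights, 0 from the 10 IP arrays by themselves and 0 to 3 without single arrays. Of all genes 1388 were called, against 2347 after quantile normalization, 2169 after median centring, 407 with array weights, 3004 with the replicate block of fraction and number, 762 with the 10 IP arrays alone and 1215 to 1578 without single arrays. In total testis, 0 of 9 genes were called, against 1 after quantile normalization, 1 after median centring, 2 with array weights, 1 with total testis arrays alone and 0 to 1 without single arrays. Of all genes 2885 were called there, against 4468, 4616, 5936 and 4790 under the same 4 settings, 5747 with the replicate block and 2187 to 3181 without single arrays. The interaction was called for 0 of 9 genes under each setting, and for 8 of all genes, against 142 after quantile normalization, 206 after median centring, 5 without a filter, 36 with the filter at the 50th percentile, 32 with log2(intensity + 100), 1 with array weights, 361 with the replicate block and 1 to 27 without single arrays. Arrays of one fraction and replicate number form a set, and the median of all genes in IP was higher in replicate 2 in each of the 5 windows. Deviations of windows with the same number correlated at -0.01 to 0.55 in IP and at -0.06 to 0.67 in total testis, so not every pair of windows deviated together, and the fit without the block was kept beside the blocked one. Depth is not given by arrays, and signal over background was not among the values used here.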
